A study of Mus musculus with 3 samples.

Results

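Cytokine-producing T cells were a rare set of 55 cells among 5253 tumor-infiltrating cells with a transcript of Cd3e, a subunit of the T cell receptor complex, in a table of 5564 mouse cells. They were chosen by their own measured values: a cell entered when it held at least 1 UMI (a counted transcript molecule) of at least 3 of the 6 genes Csf2, Ccl1, Ccl3, Xcl1, Ifng and Il2, and at least 1 UMI of Cd3e. The levels of these 6 rule genes and of Cd3e therefore describe the choice and are no finding, and since the 5 genes proposed as markers of the cells are all among them, they give no separate check of the name. The comparison group was the other 5198 Cd3e-positive cells.

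All cells came from 1 pooled droplet library of untreated mice. T cells were sorted from B16F10 melanomas of 10 mice, resected 11 days after tumor injection, where transferred T cells had been given on day 1. Of the transferred cells, CD4+ T cells carried the congenic marker CD45.1 and CD8+ T cells CD45.2, and the sorted populations were named CD4+, CD8+, CD4+CD8+ and CD8+CD4+. Animals were pooled, hashtag numbers 1 to 4 of the deposited annotation could not be tied to the sorted populations from the labels, and the numbers are not replicates. The annotation also sorts cells by an identity (Cd4 or Cd8) and by a class, where Tdp stands beside Cd4 and Cd8 and marks cells in which Cd4 and Cd8a were detected together. With 1 library there was no test across samples: intervals are exact, at 95%, and cover counting error only, and genes are called higher or lower by size alone.

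A T cell that meets its antigen signals through the receptor to calcium, NFAT, AP-1 and NF-kB, and within hours transcribes cytokines and chemokines that it hardly makes at rest. Csf2 (GM-CSF), Ifng and Il2 encode cytokines that act on myeloid cells, on antigen presentation and on T cell growth. Ccl3 and Ccl1 encode chemokines that attract leukocytes, and Xcl1 encodes a chemokine that attracts cross-presenting dendritic cells.

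The stretches upstream of the rule genes are shown because all 6 are classic targets of T cell activation and are detected together here by construction. In 250 bases before the annotated start (RefSeq, GRCm38.p6; all 6 genes matched), both strands were searched for the NFAT core TGGAAA and the AP-1 site TGANTCA. Matches are in capitals, read 5′ to 3′ on the gene's strand.
Csf2 (chr11:54249900-54250149, minus strand): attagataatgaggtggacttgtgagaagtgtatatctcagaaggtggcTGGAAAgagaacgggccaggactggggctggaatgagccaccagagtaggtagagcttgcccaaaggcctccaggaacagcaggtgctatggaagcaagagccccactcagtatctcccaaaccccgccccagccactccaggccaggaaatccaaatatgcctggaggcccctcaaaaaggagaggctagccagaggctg
Ccl1 (chr11:82179813-82180062, minus strand): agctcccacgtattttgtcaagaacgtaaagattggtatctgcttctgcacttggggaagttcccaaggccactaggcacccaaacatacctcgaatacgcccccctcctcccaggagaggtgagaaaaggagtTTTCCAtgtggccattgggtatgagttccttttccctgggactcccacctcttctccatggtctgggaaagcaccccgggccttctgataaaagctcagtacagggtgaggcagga
Il2 (chr3:37125955-37126204, minus strand): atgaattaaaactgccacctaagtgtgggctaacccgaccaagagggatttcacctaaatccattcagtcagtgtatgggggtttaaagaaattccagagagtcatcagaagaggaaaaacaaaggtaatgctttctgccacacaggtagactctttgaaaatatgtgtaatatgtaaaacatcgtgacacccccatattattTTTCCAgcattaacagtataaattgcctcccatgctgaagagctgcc
Each of these 3 held 1 NFAT core, on the lower strand in Ccl1 and Il2, where it reads TTTCCA. No match lay in the same window of Ccl3 (chr11:83649379-83649628), Xcl1 (chr1:164935523-164935772) or Ifng (chr10:118440796-118441045), and none of the 6 held the AP-1 letters. Of 32851 promoter windows of this length, 18.6% held an NFAT core and 6.75% an AP-1 site, so a match is common, and more distant elements were not searched.

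Members made up 1.05% of Cd3e-positive cells (55 of 5253; interval 0.790 to 1.36%). The share was 1.26% in the Cd8 identity (35 of 2767; 0.883 to 1.75%) and 0.805% in the Cd4 identity (20 of 2486; 0.492 to 1.24%), with overlapping intervals. By class, 30 members were Cd8, 20 were Cd4 and 5 were Tdp. All 5 Tdp members had the Cd8 identity (1.60% of 312 such cells), and 0 of 91 Tdp cells of the Cd4 identity were members, which allows a share of up to 3.30% by the limit of 3 cells (exact interval up to 3.97%). Hashtag numbers 1, 2, 3 and 4 held 18, 15, 13 and 9 members, or 1.20%, 0.917%, 1.20% and 0.866% of their Cd3e-positive cells. Every number held members, and their intervals overlapped. Within numbers, the Cd8-identity shares were 1.33%, 1.38%, 1.37% and 0.924%, and the Cd4-identity shares were 1.16%, 0.392%, 0.483% and 0.769%, so the Cd8 identity was the higher in each. Number 1 held 13 of the 20 Cd4-identity members, and without it the Cd4-identity share was 0.514%.

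Depth moved with membership. Members had a median of 8290 UMIs (range 1519 to 23946) and the other Cd3e-positive cells 3871. Cells of at least 8000 UMIs were members in 3.71% of the Cd8 identity and 5.93% of the Cd4 identity, against 0.323% and 0 of 1524 (interval up to 0.242%) below 4000 UMIs. When each cell was thinned to 2000 UMIs, leaving out shallower cells, 19 of 4583 cells (0.415%; 0.250 to 0.647%) met the rule, with 0.608% in the Cd8 identity and 0.189% in the Cd4 identity. The intervals of these thinned shares, 0.340 to 1.00% and 0.0516 to 0.484%, still overlapped. Most list counts over all members are therefore given a second time, against the other cells weighted to the members' identity, hashtag number and UMI class ("weighted"). List counts within an identity are not. A weighted fold stands beside a gene called by size where it ends that call. After weighting, the comparison cells had a mean of 8183 UMIs, against 9462 in members and 4782 without weights.

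**Figure D1:**
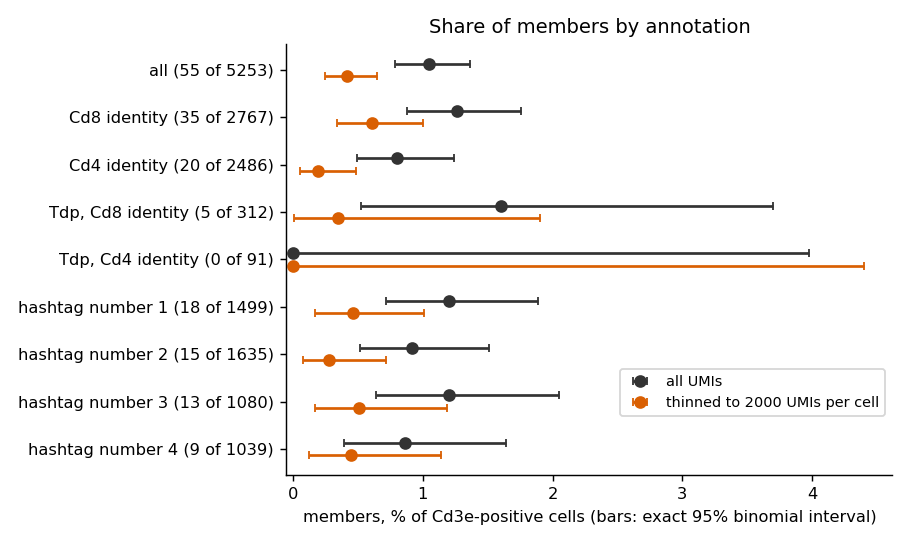
Members as a percentage of Cd3e-positive cells (x axis) in each annotation group (y axis, with members and cells), before and after thinning to 2000 UMIs per cell; points are shares and bars exact 95% binomial intervals. The shares run from 0.866 to 1.20% over hashtag numbers, and the thinned share of all cells is 0.415%.

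The threshold sits on a falling slope. Of Cd3e-positive cells, 3761 had no rule gene, 1230 had 1, 207 had 2, 34 had 3, 18 had 4, 2 had 5 and 1 had all 6. The 34 cells just inside had a median of 9.5 rule-gene UMIs, and the 207 just outside a median of 2. A further 3 cells met the gene count without a Cd3e UMI and were left out.

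Cytokine output was very uneven among members. Rule-gene UMIs per cell ran from 3 to 909 with a median of 17, 20 cells held fewer than 10, and 9 held 100 or more. The 10 highest cells held 78.7% of the members' rule-gene UMIs, and the 55 members held 56.6% of those in the whole table. In the highest cell (Cd8 class, hashtag number 2, 9616 UMIs), rule genes took 9.45% of all UMIs: 407 of Xcl1, 225 of Ccl3, 128 of Ifng, 90 of Il2, 51 of Ccl1 and 8 of Csf2. The second (Cd8 class, number 4) held 365 UMIs of Ifng, 145 of Xcl1, 117 of Ccl3, 67 of Ccl1 and 23 of Il2, and no Csf2. The third (Cd8 identity, number 2) held 183 of Csf2, 164 of Ccl1, 148 of Ifng and 43 of Xcl1, with only 4 of Ccl3 and no Il2. The first 2 cells thus led with the same 3 genes, Xcl1, Ccl3 and Ifng, in a different order. The third, which held Cd4 and no CD8 transcripts, led with Csf2, Ccl1 and Ifng.

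Ifng was the most widely detected rule gene, in 51 of 55 members, followed by Ccl3 in 41, Xcl1 in 38, Ccl1 in 23, Il2 in 19 and Csf2 in 18. Among the other Cd3e-positive cells the shares with a UMI were 15.5% for Ifng, 6.16% for Il2, 4.27% for Xcl1, 3.69% for Ccl3, 1.15% for Ccl1 and 0.846% for Csf2. The annotation gives each cell a T cell identity (Cd4 or Cd8). No group of cells lacking these genes was set apart, so the level of free RNA was not estimated. Ccl1 and Csf2 were rare but abundant where present: 10 of the 23 Ccl1-positive members held at least 10 UMIs, up to 280 in a cell, and Csf2 reached 183. A single cell held 55.3% of the members' Csf2 UMIs, 46.0% of Xcl1 and 36.3% of Ifng, so summed levels of these genes lean on few cells.

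Members held different sets of the rule genes, and a rule that takes any 3 of 6 shapes these pairings, so they are given as a description. Ccl3 and Ifng were both detected in 37 members, Xcl1 and Ifng in 36 and Ccl3 and Xcl1 in 27, while Ccl1 and Il2 were together in only 3. Over the 55 members, which share a library and differ in depth, Spearman's rank correlation of CPM was 0.87 between Ccl3 and its neighbor Ccl4, which the rule did not use. This was the highest of the pairs computed. The others ran from -0.04 (Ccl1 and Ccl3) to 0.53 (Ifng and Nr4a1), with 0.17 for Xcl1 and Ccl3. Ccl3 and Ccl4 lie in the same chemokine cluster.

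**Figure D2:**
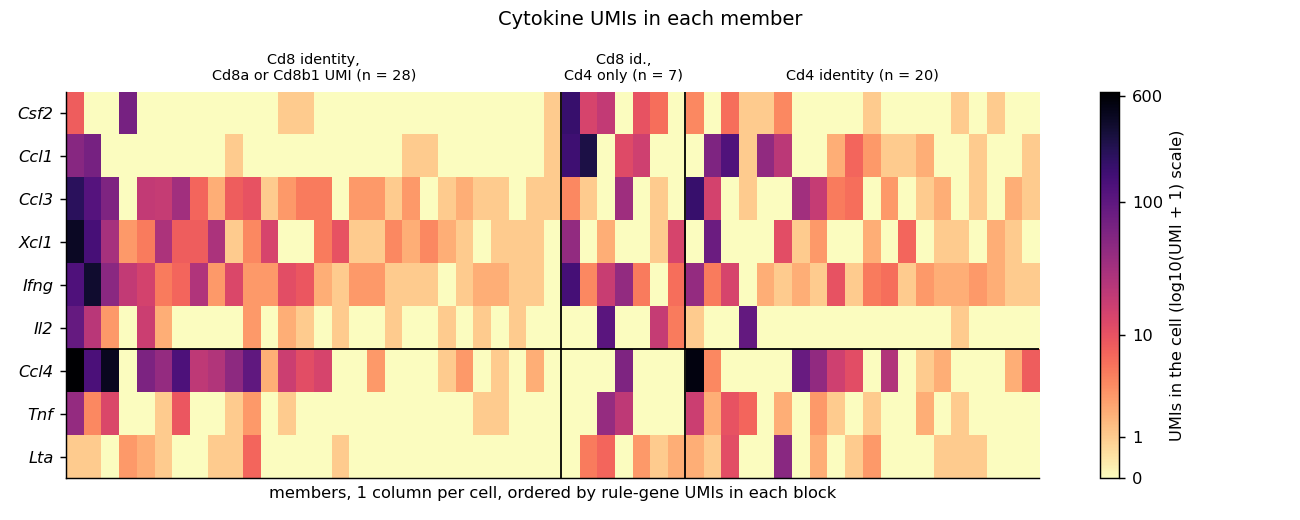
UMIs of the 6 rule genes and of Ccl4, Tnf and Lta (rows) in each of the 55 members (columns, 1 cell each), colored on a log10(UMI + 1) scale and split by identity and co-receptor transcripts. Counts reach 641 in a cell (Ccl4), and most members hold few UMIs of most genes.

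Members also expressed cytokines and chemokines that the rule did not use, above all Ccl4, Tnf and Lta. Levels here are CPM summed over a group, with receptor, immunoglobulin and rule genes and Cd3e left out of the total. Of 3641 genes with at least 20 UMIs expected in members, 82 (2.25%) were at least 2-fold higher in members and 170 (4.67%) at least 2-fold lower, beside a median log2 ratio of -0.04. Against the weighted cells the counts were 67 (1.84%) and 123 (3.38%), and 58 and 89 of the genes were past 2-fold both ways of comparing. Without hashtag number 3, which left 2863 tested genes, the higher count was 48. Without cells that hold at least 3 proliferation genes, which left 1546 genes, the counts were 39 and 111. The expected UMIs are taken from both groups together, so a gene's UMIs in members count toward the minimum. Some genes, Lta among them, would have missed it at the other cells' level. Since genes that are rare in the other cells can miss this minimum, list members below it are given by their counts, and those passed into no count.

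Ccl4 was at 3776, 5911, 5807 and 3648 CPM in members of hashtag numbers 1, 2, 3 and 4, and at 131, 89.4, 80.6 and 68.6 CPM in the other cells. Members were far above in every number, 50.3-fold in all (47.5 to 53.2) and 39.9-fold against weighted cells. It was detected in 31 of 55 members (56.4%) and in 10.5% of the others. Tnf, the inflammatory cytokine, was at 450, 503, 230 and 111 CPM in members and at 53.3, 40.7, 24.5 and 34.6 CPM in the others. The 4 member values lay above the 4 others, 8.99-fold in all (7.63 to 10.5). Lta (lymphotoxin alpha) was at 462, 30.0, 119 and 123 CPM against 57.0, 31.8, 26.9 and 20.7 CPM, and in number 2 it was not above the others. Its 5.91-fold difference leaned on 1 cell with 45.9% of the UMIs, although 24 of 55 members (43.6%) had a UMI against 9.58% of the others.

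Of 12 TNF-family ligands among the listed cytokines, a grouping made after their values were seen, 5 reached the minimum. Of these, 2 (Tnf and Lta) were at least 2-fold higher, and 4 against weighted cells, with Fasl (2.08-fold weighted) and Cd40lg. None was lower. Lta reached the minimum only with its UMIs in members, so its place in these counts is no separate finding. The other 7 lay below the minimum, with weighted folds from 2.68 (Tnfsf10, TRAIL) to 14.6 (Cd70). Tnfsf11 (RANKL) was in 41.8% of members, 7.21% of the others and 10.0% of weighted cells. The shares were 49.1%, 6.54% and 7.56% for Tnfsf14 (LIGHT), 29.1%, 1.52% and 3.57% for Cd70, the ligand of CD27, and 27.3%, 8.41% and 10.4% for Tnfsf8 (CD30L). Il21 was in 6 members with 42 UMIs, and Il3 in 2 with 35. Of the 25 listed other cytokines in the table, 6 reached the minimum. Of these, 2 (Tnf and Lta) were at least 2-fold higher and 0 lower (4 and 0 weighted), with Lta again past the minimum only with its UMIs in members. Backgrounds for higher genes were 2.25% and, weighted, 1.84%. Cd40lg, which licenses antigen-presenting cells, was 1.94-fold higher (1.56 to 2.39) and 3.28-fold against weighted cells. Ccl5, a chemokine of resting effector and memory cells, went the other way: it was at 2586 CPM in members and 5350.5 CPM in the others, 2.07-fold lower (1.96 to 2.19), and 1.57-fold lower against weighted cells. Its member values of 1703, 3541, 3467 and 1535 CPM lay below those of the other cells of the same number, 2716, 5931, 7586 and 5908 CPM.

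Some transcripts that T cell receptor signals are known to induce were higher in members, and others were not. Nr4a1 (Nur77), an orphan nuclear receptor induced by T cell receptor signals, was in 31 of 55 members (56.4%) and in 4.46% of the other cells, or 6.56% of weighted cells. Its level was 421, 338, 317 and 405 CPM in members of numbers 1 to 4 and 16.7, 21.5, 17.4 and 29.9 CPM in the others, 17.8-fold higher in all (15.0 to 21.1). Its relatives Nr4a3 (20 members; 12.7-fold) and Nr4a2 (26 members; 7.11-fold) and the zinc-finger factor Egr2 (18 members, 32.7% against 1.25%; 22.7-fold) were also higher. Against weighted cells Nr4a1 was 17.3-fold, Nr4a3 13.3-fold, Nr4a2 6.91-fold and Egr2 14.4-fold higher. These 4 genes lay below the expected minimum and passed into no count, and they are named for their high values.

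Of 14 immediate early and receptor-induced factors that reached the minimum, 5 were at least 2-fold higher and 1 lower, against backgrounds of 2.25% and 4.67%; their median log2 ratio was 0.56. Weighted, 5 were higher and 0 lower (median 0.61; backgrounds 1.84% and 3.38%). Irf8, an interferon regulatory factor, was at 179, 210, 167 and 455 CPM in members against 67.9, 31.9, 37.2 and 57.7 CPM (4.67-fold; 3.15-fold weighted). The NF-kB subunit Rel was 3.1-fold higher, Bhlhe40, which sustains cytokine production, 2.49-fold, Nfkb2 2.47-fold and the AP-1 family factor Batf 2.23-fold. The AP-1 genes that tissue dissociation also induces did not follow: Jun was 1.10-fold higher, Fos was at 91.4 against 139 CPM and Fosb at 21.4 against 43.3 CPM, 2.02-fold lower (1.80-fold weighted).

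Genes of the signaling machinery had medians near no difference. The 22 proximal receptor signaling genes had a median log2 ratio of -0.16 (-0.02 weighted). Zap70, the receptor-proximal kinase, was 1.60-fold higher (1.36 to 1.88). Of 12 calcium and NFAT pathway genes, 1 was higher, the calcium channel subunit Orai1, and 0 lower, with or without weights (median -0.19). Over all genes the share for higher was 2.25%, or 1.84% weighted. Orai1 was at 289, 203, 206 and 295 CPM in members and 116, 90.2, 80.0 and 97.2 CPM in the others (2.55-fold). Cd3d and Cd3g were level with the other cells, at 0.922 and 0.996 of their CPM.

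Of 15 feedback genes, 2 were higher and 2 lower, against backgrounds of 2.25% and 4.67%, and weighted, 2 were higher and 0 lower (1.84% and 3.38%). Nfkbib, an inhibitor of NF-kB, was at 300, 210, 246 and 393 CPM in members against 94.3, 75.1, 70.9 and 87.0 CPM (3.39-fold), and Dusp2, a MAP kinase phosphatase, was 2.01-fold higher. Below the minimum, Rgs16, which dampens G protein signals, was in 27 members (49.1% against 2.62%; 17.0-fold), the atypical NF-kB inhibitor Nfkbid in 19 (6.67-fold) and Spry1, an inhibitor of Ras signaling, in 11 (11.7-fold). Dgka, which consumes diacylglycerol, and Pdcd4, a translation repressor, were 2.39-fold and 2.40-fold lower, but 1.80-fold and 1.73-fold against weighted cells. Of 8 genes for cytokine mRNA decay or stability, 0 were higher and 2 were lower: N4bp1 at 2.91-fold (2.86-fold weighted) and Arid5a at 2.08-fold (1.71-fold weighted). Weighted, 0 were higher and 1 lower.

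Growth genes had the largest share past 2-fold among the gene lists described here. Of 15 MYC targets and ribosome biogenesis genes that reached the minimum, 12 were at least 2-fold higher and 0 lower, with a median log2 ratio of 1.16; against weighted cells 9 were higher, with a median of 1.04. The backgrounds were 2.25% and 1.84% of all genes. By identity, 8 of 11 tested genes were higher in Cd8-identity members (median 1.46; background 3.58%) and 1 of 10 in Cd4-identity members (median 0.60; background 1.74%). That 1 was Pa2g4, a ribosome-associated protein. The difference between identities was not tested. Nolc1, a nucleolar phosphoprotein, was at 92.4, 165, 238 and 356 CPM in members and 49.7, 39.7, 45.6 and 43.6 CPM in the others (4.22-fold). The snoRNP proteins Nop56 and Nop58 were 3.18-fold and 3.09-fold higher, the mitochondrial chaperonin Hspd1 3.00-fold, and the nucleolar protein Npm1 2.30-fold. Srm, which makes spermidine, was below the minimum and 5.98-fold higher. Myc itself was in 26 members (47.3% against 8.02%), at 69.3, 165, 254 and 381 CPM against 29.3, 24.2, 31.7 and 25.2 CPM (6.86-fold). Glycolysis genes did not pass 2-fold in either direction (0 of 13; median log2 0.25, and 0.07 weighted), with Ldha at 1.47-fold. Among the 8 tested genes of amino acid transport and stress response, Psat1, a serine synthesis enzyme, was the 1 past 2-fold (2.20-fold; 1.37-fold weighted).

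**Figure D3:**
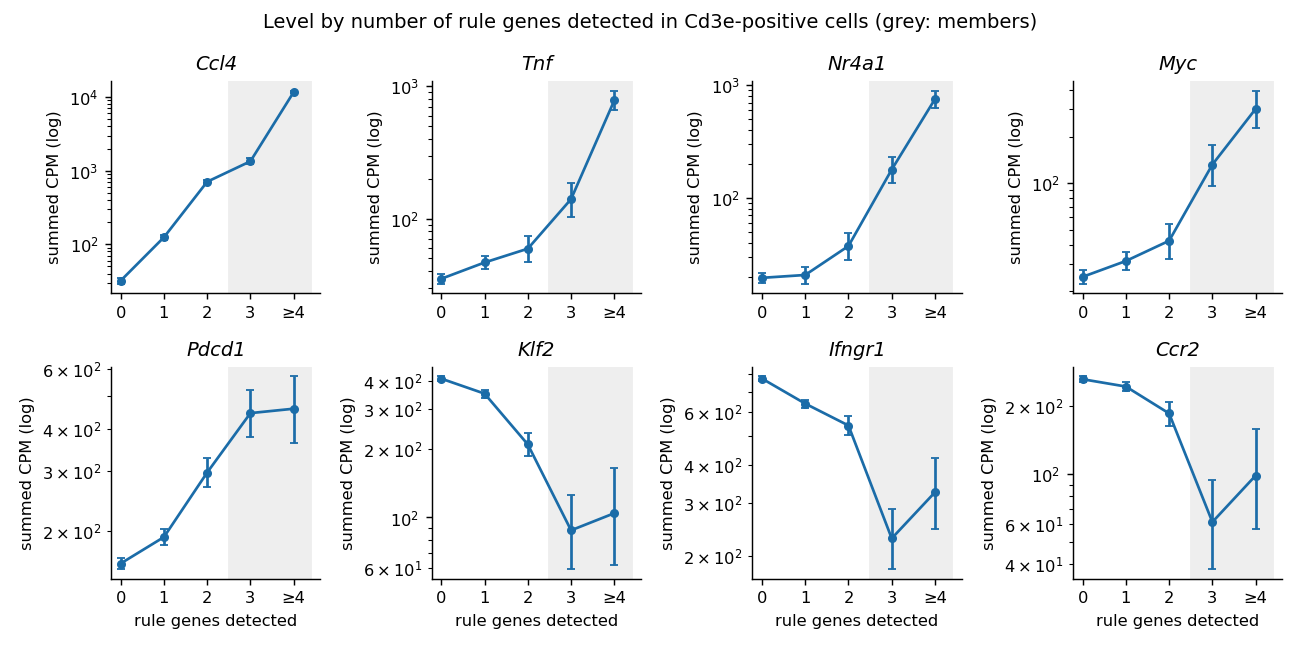
Summed CPM (log y axes) of 8 genes in Cd3e-positive cells with 0, 1, 2, 3 or at least 4 rule genes detected (x axis); points are sums over 3761, 1230, 207, 34 and 21 cells, bars exact 95% Poisson intervals, and grey marks members. Ccl4, Tnf, Nr4a1 and Myc climb and Klf2, Ifngr1 and Ccr2 are lower on the members' side; median UMIs also climb, from 3677 to 8218.

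Some differences were graded across the threshold. Nr4a1 stood at 19.5, 20.7 and 37.4 CPM in cells with 0, 1 and 2 rule genes, at 179 CPM with 3 and at 754 CPM with at least 4. Ccl4 stood at 32.0, 124 and 707 CPM and then at 1341 and 11681 CPM. The last level leaned on single cells with 641, 528 and 431 of its 2013 UMIs. Ccl4 was detected in 58.8% of cells with 3 rule genes and 52.4% of those with at least 4. Myc stood at 24.7, 31.3 and 42.3 CPM and then at 132 and 302 CPM. Klf2, lower in members, stood at 408, 351 and 210 CPM and then at 87.8 and 104 CPM. Other genes higher in members did not climb outside the threshold. Tnfrsf4 (OX40) stood at 316, 165 and 210 CPM with 0, 1 and 2 rule genes and at 541 and 1224 CPM with 3 and at least 4. Tnfrsf9 (4-1BB) stood at 226, 127 and 112 CPM and then at 337 and 604 CPM. Rel was flat at 50.1, 48.7 and 46.6 CPM before 114 and 232 CPM, as was Npm1 at 659, 688 and 681 CPM before 1586 and 1433 CPM. Over the same bins the median depth was 3677, 4346, 5299, 8326.5 and 8218 UMIs, and its part in these values was not tested; the 2 member bins differ little in depth.

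Receptors of activated T cells were higher in part. Tnfrsf4 was at 1299, 548, 246 and 823 CPM in members and 499, 205, 90.1 and 223 CPM in the others (2.86-fold; 3.13-fold weighted). Tnfrsf9 was at 167, 390, 508 and 909 CPM against 313, 146, 101 and 187 CPM, so that in hashtag number 1, which holds most Cd4-identity members, it was lower in members; it was 2.21-fold higher in all. These 2 were the only ones of 13 activation and costimulatory receptors past 2-fold without weights (background 2.25%), and 0 were lower; weighted, 3 were higher, with Cd82 at 2.04-fold. The early activation marker Cd69 was at 208 CPM against 306 CPM. Of 8 inhibitory receptors, 3 were at least 2-fold higher, with or without weights, and 0 lower: Pdcd1 (PD-1), Lag3 and Cd160. The backgrounds for higher genes were 2.25% and, weighted, 1.84%. In the Cd4 identity alone, of 5 tested, 1 (Pdcd1) was higher and 2 (Vsir and Lilrb4a) were lower (median log2 -0.38). The backgrounds there were 1.74% for higher and 5.63% for lower. In the Cd8 identity 1 of 6 (Cd160) was higher and 0 lower (background 3.58% for higher). Pdcd1 was at 525, 398, 309 and 590 CPM in members and 154, 163, 223 and 178 CPM in the others (2.55-fold), and was in 46 of 55 members. Lag3 was 2.56-fold and Cd160 2.71-fold higher, and Havcr2 (TIM-3), below the minimum, was in 21 members (38.2% against 6.43%; 4.41-fold). Ctla4 was at 81.7 CPM against 128 CPM.

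Cytotoxic genes were mostly level. Gzmb was at 525 CPM in members and 515 CPM in the others (1.02-fold; 0.901 to 1.15). The granzyme inhibitor Serpinb9 was 3.93-fold higher and its relative Serpinb6b 2.69-fold. They were the 2 of 11 tested genes past 2-fold, with Fasl as the third against weighted cells (backgrounds 2.25% and 1.84%). Gzmc, whose reads can be hard to assign within its granzyme cluster, had 151 UMIs in 7 members, 37.7% of them in 1 cell.

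By the naming rule, the remaining genes at the top were Penk, Eea1, Plscr1, Tagap and Gadd45b. Penk, which encodes the opioid precursor proenkephalin, was at 191, 570, 151 and 1265 CPM in members against 96.6, 8.95, 13.7 and 36.9 CPM (10.9-fold), yet only 10 members had a UMI and 1 cell held 44.6%. Plscr1 (phospholipid scramblase) was at 248, 150, 71.4 and 123 CPM against 48.6, 31.3, 37.0 and 34.6 CPM (4.17-fold). Eea1, an endosome tether, was 4.15-fold higher, Tagap, a GTPase-activating protein of activated T cells, 3.85-fold, and the stress gene Gadd45b 3.41-fold. Against weighted cells each of these 5 stayed between 2.92-fold and 10.6-fold higher.

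Genes of resting, recirculating T cells were lower in members. Of 11 naive and memory genes, 7 were at least 2-fold lower and 0 higher (median log2 -1.20), against a background of 4.67%; weighted, 5 were lower (median -0.79; background 3.38%). Klf2, which drives the S1pr1 exit receptor and keeps T cells quiescent, was at 69.3, 90, 190 and 0 CPM in members and 293, 404, 451 and 400 CPM in the others (4.08-fold lower; 3.08 to 5.54). Il7r, the receptor for the survival cytokine IL-7, was at 63.5, 45, 262 and 123 CPM against 355, 346, 328 and 378 CPM. Members lay below in every number, 3.01-fold in all, but 1.76-fold against weighted cells. Klf3 was 3.60-fold, S1pr1 2.86-fold, Lef1 2.79-fold and Tcf7 2.41-fold lower, Tcf7 1.61-fold weighted.

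Some receptors for chemokines and for interferon gamma were lower too. Ccr2 was at 115, 22.5, 87.3 and 49.1 CPM in members and 327, 257, 158 and 245 CPM in the others (3.43-fold lower), and Cxcr3, the receptor for interferon-induced chemokines, was 2.24-fold lower (1.81-fold weighted). The list of chemokine and migration receptors, which holds S1pr1, had 3 of 6 tested genes lower and 0 higher (background 4.67% for lower); weighted, 2 were lower, Ccr2 and S1pr1 (background 3.38%). Ifngr1, the receptor chain for the cytokine that most members transcribe, was at 277, 218, 278 and 270 CPM in members and 786, 728, 650 and 716 CPM in the others, 2.78-fold lower (2.35 to 3.32) and 2.10-fold lower weighted. The integrin chains Itga4 and Itgb7 were 2.89-fold and 2.27-fold lower, Itgb7 1.85-fold weighted.

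Of 12 genes of the type I interferon response, 3 were at least 2-fold lower and 0 higher (median log2 -0.63). The background for lower genes was 4.67%. Weighted, 4 were lower and 0 higher (median -0.63, background 3.38%). Ifit3 was at 34.6, 30.0, 31.7 and 0 CPM in members and 152, 145, 139 and 137 CPM in the others (5.28-fold lower). Ifit1 was 3.76-fold and Rsad2 4.98-fold lower, and Cmpk2, an interferon-induced kinase, was 5.0-fold lower. Their counts in members were small, 14, 19, 6 and 5 UMIs for the 4 genes. Isg15 was at 309 against 469 CPM.

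Foxp3, the factor that defines regulatory T cells, was all but absent. It was in 1 of 55 members, with 5 UMIs, and in 12.1% of the other Cd3e-positive cells (12% weighted). Ikzf2, another gene of regulatory T cells, was 4.24-fold lower (2.61 to 7.43), while the list's Tnfrsf4 and Tnfrsf9 were higher, as given above. Other genes at the bottom were Arl4c, a small GTPase, at 17.3, 22.5, 15.9 and 12.3 CPM against 123, 138, 155 and 146 CPM (7.91-fold lower), Tmem176b (7.56-fold lower) and Ltb4r1, a leukotriene B4 receptor, with 1 UMI in members against an other-cell level of 41.3 CPM, a ratio of 21.2-fold with an interval of 3.80 to 840. Ssh2 and Tmem71 were 3.93-fold and 3.89-fold lower.

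**Figure D4:**
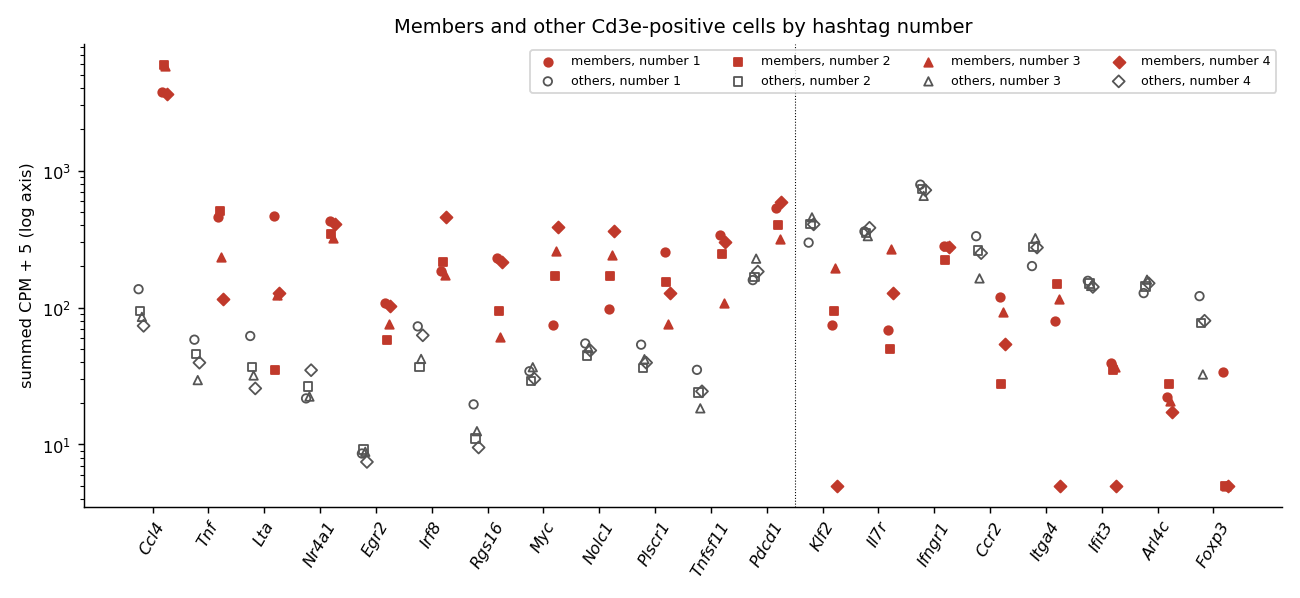
Summed CPM plus 5 (log y axis) of 20 genes in members (filled) and other Cd3e-positive cells (open) of hashtag numbers 1 to 4 (symbols); left of the dotted line are genes higher in members, right of it genes lower. For Ccl4, Nr4a1, Ifngr1 and Arl4c all 4 member values lie on 1 side of all 4 others; Lta in number 2 is the point on the left that does not stand above its own number.

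Members of the 2 identities shared the cytokine rule but differed in other genes. In the Cd8 identity, 77 of 2148 tested genes (3.58%) were at least 2-fold higher in members than in the other Cd8-identity cells and 151 (7.03%) lower. In the Cd4 identity, 30 of 1722 (1.74%) were higher and 97 (5.63%) lower. Without hashtag number 3, which left 1250 tested genes, the Cd8-identity counts were 42 and 95. Without number 1, which left 7 Cd4-identity members and 612 tested genes, the Cd4-identity counts were 23 and 76, but these shared only 2 and 24 genes with the 30 and 97. Without number 2, which left 1356 tested genes, the Cd4-identity counts were 19 and 55. Against weighted cells, with all 1722 genes, the Cd4-identity counts were 8 and 44. Pdcd1 was 1.88-fold higher in the Cd8 identity and 4.19-fold in the Cd4 identity, and Bhlhe40 4.06-fold and 1.33-fold. Klf2 was at 0.339 of the others' level in the Cd8 identity and at 0.0727 in the Cd4 identity. Tnfrsf9 was 8.49-fold higher in Cd8-identity members and at 0.612 of the others' level in Cd4-identity members, whose comparison cells include the Foxp3-positive cells. These differences between identities were not tested.

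Cell-cycle genes parted in the same way. Over all members, 0 of 16 proliferation genes passed 2-fold in either direction (median log2 0.23). Against weighted cells the median was -0.56 and 1 was lower (background 3.38%). Mki67, a marker of cycling cells, was at 0.377 of the others' level in Cd8-identity members and 2.58-fold higher in Cd4-identity members, Top2a at 0.335 and 2.26-fold. At least 3 of the proliferation genes were detected in 25 of 55 members (45.5%), in 23.6% of the other cells and in 50.7% of weighted cells. The share was 75.0% in Cd4-identity members, whose median depth of 10668 UMIs was the greatest.

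A group of members went against their identity. Of 35 Cd8-identity members, 7 (20%; 8.44 to 36.9%) held Cd4 UMIs and none of Cd8a or Cd8b1, against 21 of 2732 other Cd8-identity cells (0.769%; 0.476 to 1.17%), or 0.612% when weighted. Put the other way, 7 of the 28 Cd3e-positive cells in this state were members (25.0%), whereas members were 1.04% of the Cd8-identity cells with only CD8 transcripts. The group was picked out after its values were seen. In the Cd4 identity, 2 of 20 members (10%; 1.23 to 31.7%) held Cd8a or Cd8b1 UMIs and none of Cd4, against 6.37% of the other cells. Another 2 of the 20 held none of the 3 transcripts. The sources used here do not say how the authors assigned the identity. The 7 cells came from numbers 1 (3 cells), 2 (3 cells) and 4 (1 cell), held 2 to 7 Cd4 UMIs each, had 1519 to 16250 UMIs, and 1 of them showed 2 Trbv genes.

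These 7 cells held 27.0% of the members' rule-gene UMIs. They had 233 of the 331 Csf2 UMIs, 472 of the 865 Ccl1 UMIs and 131 of the 371 Il2 UMIs, and 60 of the 885 Xcl1 UMIs and 42 of the 845 Ccl3 UMIs. Single cells held much of this: 183 of the 233 Csf2 UMIs, 280 of the 472 of Ccl1 and 107 of the 131 of Il2. Their Csf2 level was 3806 CPM, against 351 CPM in the 28 Cd8-identity members with CD8 transcripts and 83.4 CPM in the 20 Cd4-identity members. Leaving out the highest cell of each group, it was 933, 54.7 and 60.1 CPM. In the same way, Ccl1 went from 7711, 543 and 1189 CPM to 3539, 251 and 670.0 CPM, and Il2 from 2140.0, 649 and 412 CPM to 426, 259 and 9.27 CPM. All 35 Il3 UMIs of members, 30 of them in 1 cell, and 33 of the 42 Il21 UMIs lay in them. Tnfsf11 was at 1209, 111 and 123 CPM in the 3 groups, Tnfrsf4 at 2761, 369 and 632 CPM, and Cd40lg, a helper T cell gene, at 392.1, 80.0 and 219 CPM. Some genes usual in CD8 T cells were low in them: Ccl5 was at 16.3, 4878 and 1014 CPM, the granule protein gene Nkg7 at 555, 2833 and 1790.4 CPM, and Ctsw at 49.0, 636 and 408 CPM. The granzyme gene Gzmc went the other way, at 1650, 8.89 and 211 CPM, its 101 UMIs in the 7 cells coming from 2 of them. The 21 other Cd8-identity cells with Cd4 and no CD8 transcripts had several of the same traits, so these are not particular to members. In them Tnfrsf4 was at 1574 CPM, Cd40lg at 262, Nkg7 at 604 and Ctsw at 167 CPM. Penk was at 2908 CPM in the 7 cells, from 3 of them. It was at 3609 CPM in the 21, from only 2 cells, with 286 of 454 UMIs in 1. Tnfsf11 was at 183 CPM in the 21 and Ccl5 at 3720 CPM, 258 of its 468 UMIs in 1 cell.

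The 28 Cd8-identity members with CD8 transcripts held 716 of the 885 Xcl1 UMIs, 677 of 1005 of Ifng, 532 of 845 of Ccl3 and 1684 of 2471 of Ccl4. By level, Xcl1 was at 3184, 980 and 478 CPM in these 28, the 7 and the 20 Cd4-identity members, and Ccl3 at 2366, 686 and 1189 CPM. Without the highest cell of each group, Xcl1 was at 1429, 317 and 133 CPM. The highest of the 20 held CD8 transcripts and no Cd4 UMI. It had 80 of their 109 Xcl1 UMIs and 60 of their 271 Ccl1 UMIs. Ifng was at 3011, 3659 and 456 CPM, and at 1422, 1419 and 286 CPM without the highest cell of each group. Xcl1 and Ccl3 were each in 24 and Ifng in 26 of the 28, while Csf2 was in 5. Set against the 2542 other Cd8-identity cells with CD8 transcripts, Nr4a1 was 33.5-fold higher, Tnfrsf9 10.5-fold, Myc 12.7-fold and Ccl4 83.0-fold. In the 20 Cd4-identity members, Ifng was in 19 and Ccl1 and Ccl3 each in 13, at mostly low counts: the median in positive cells was 2, 2 and 3 UMIs, and Il2 was in 3.

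**Figure D5:**
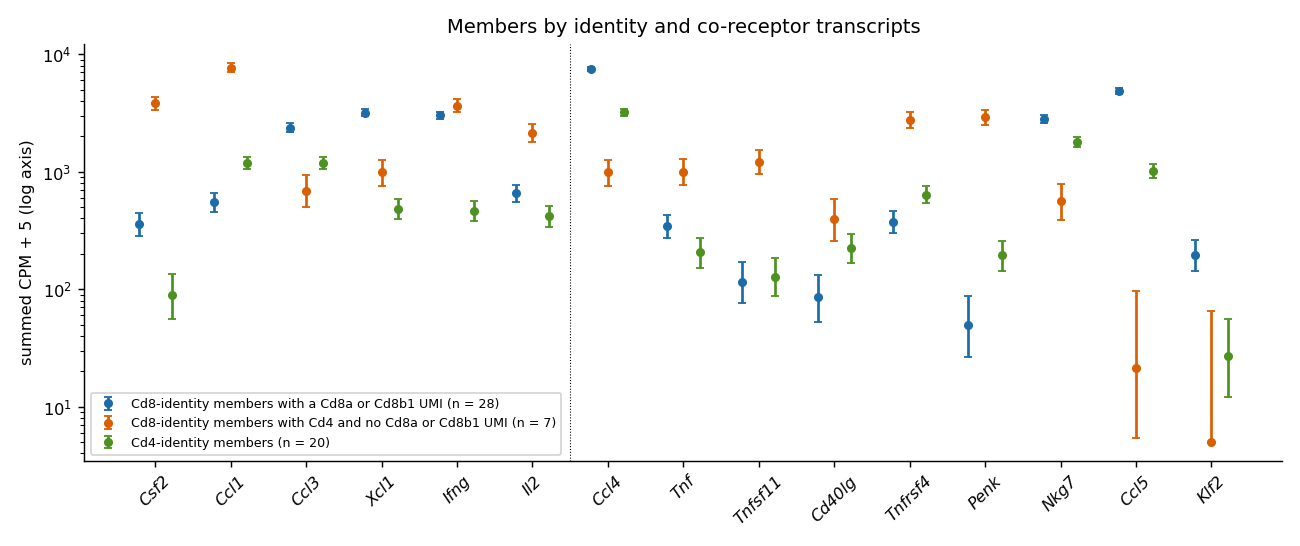
Summed CPM plus 5 (log y axis) of 6 rule genes (left of the dotted line) and 9 further genes in 28 Cd8-identity members with CD8 transcripts, 7 with Cd4 only and 20 Cd4-identity members; bars are exact 95% Poisson intervals for counting error. The 7 cells stand highest for Csf2, Ccl1, Il2, Tnfsf11 and Tnfrsf4 and lowest for Ccl5; for Ifng their interval overlaps that of the 28.

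The leading Trbv gene varied among members. Of 55 members, 54 had a Trbv UMI, and 12 different Trbv genes led. Trbv13-2 led in 12 members (22.2% of the 54, against 8.60% of the other cells with a Trbv UMI) and Trbv12-1 in 10 (18.5% against 16.8%). At least 2 UMIs of each of 2 Trbv genes were in 15 members (27.3%), in 12.5% of the other cells and in 22.9% of weighted cells. They were in 8 of 20 Cd4-identity members (40%), against 10.3% of the other Cd4-identity cells, which were shallower. In Cd8-identity cells with CD8 transcripts they were in 6 of 28 members (21.4%) and 15.1% of the others. The part of such possible doublets in the results was not tested beyond leaving them out.

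Transcripts that mark other cell types were present in some members. T cell markers summed to 5864 CPM in members and 6056 CPM in the others. Macrophage and monocyte markers summed to 1177 CPM in members and 947 CPM in the others, and at least 2 UMIs of them were in 41.8% of members, 24.7% of the others and 37.7% of weighted cells. Dendritic cell markers summed to 1940 CPM and 2827 CPM, with shares of 76.4%, 55.5% and 69.4%, and NK cell markers to 636 CPM and 475 CPM, with shares of 34.5%, 21.8% and 37.1%. At 0 in members were 3 of 14 macrophage and monocyte markers (C1qa, C1qb and C1qc), 7 of 14 dendritic cell markers, among them Xcr1 and Clec9a, and all 5 neutrophil markers in the table. Of 5 tested macrophage markers, 0 were at least 2-fold higher and 0 lower (weighted, 0 and 1, median log2 -0.70). Of 6 dendritic cell markers, 0 were higher and 1 lower (weighted, 0 and 5, median -1.32, background 3.38% for lower). In the Cd4 identity their medians were 0.74 and 1.05, with 1 of 4 and 3 of 5 higher (background 1.74%) and 0 and 1 lower. In the Cd8 identity they were -0.55 and -5.99, with 0 higher and 1 of 4 and 4 of 5 lower (background 7.03%). Lyz2, which marks macrophages and neutrophils, had 248 UMIs, all in 2 Cd4-identity members of number 1 that also held 73 and 85 UMIs of H2-Aa, an antigen-presentation gene. The NK cell receptor gene Ncr1 had 16 UMIs in 3 Cd8-identity members, and melanoma markers had 4 UMIs in all. At least 2 UMIs of the exclusive markers of another type were in 7 members (12.7%), in 8.54% of the other cells and in 21.4% of weighted cells. Their part in the gene differences was not tested beyond leaving those cells out.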

How the data were processed

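Raw UMI counts per gene and cell were deposited by the authors. The submitters' processing notes name Cell Ranger 3.1.0, Seurat 3.2.3 and, as genome build, mm10, without saying which step each served. The table holds 14811 genes and 5564 cells of 1 library; the hashtag and receptor libraries and the antibody table were not analysed here. Cell filters and doublet removal are not given in the sources used here.

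The members and gene lists were chosen with earlier results of these data known. Counts were summed over cells and given as CPM, leaving out 119 receptor and immunoglobulin genes (0.332% of UMIs), the rule genes and Cd3e. A pseudocount of 5 CPM was added for log2 ratios but not for folds. Ratio intervals are exact conditional binomial, levels exact Poisson and shares Clopper-Pearson. For weighted folds the interval covers the members' count only. Weights used 18 strata of identity, hashtag number and 3 UMI classes; thinning was seeded. The rule for naming genes took the top 12 and bottom 12 by log2 ratio with at least 20 CPM and a UMI in 10% of cells of the higher group, and for each list at most the 3 highest and 2 lowest. Further genes of the lists are named to show a list's spread. The ratio step was tested on simulated data. Python 3.11.15, scipy 1.17.1 and edgeR 4.0.16 (TMM factors only) were used. Some items are not reported here.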

Additional observations from a re-analysis of the deposited data

Results flagged for a closer look

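Genes are given here where members stood at least 2-fold apart from the other cells (log2 ratio with a pseudocount of 5 CPM) in opposite directions in the 2 identities, with both counting intervals away from no difference. The difference between the identities was not tested. Among cell-cycle genes, the log2 ratio was -1.34 in the Cd8 identity and 1.33 in the Cd4 identity for Mki67, -1.52 and 1.15 for Top2a, and -2.10 and 1.24 for Rrm2, which makes deoxynucleotides. Cd4-identity members were the deepest, with a median of 10668 UMIs against 3561 in the other Cd4-identity cells. The same gap was 6901 against 4188.5 UMIs in the Cd8 identity.

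For genes of myeloid and antigen-presenting cells the log2 ratios were -5.77 and 1.94 for Lyz2, -6.50 and 1.25 for H2-Aa, -6.08 and 1.05 for H2-Ab1, -5.99 and 1.29 for H2-Eb1, and -3.75 and 1.93 for the chemokine Ccl6. Lyz2, H2-Aa, H2-Ab1 and H2-Eb1 had no UMI in Cd8-identity members, and in the Cd4 identity 2 members held all 248 UMIs of Lyz2 and 158 of the 162 of H2-Aa.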

How the results depend on the processing

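Shares kept within the binomial interval of the reported value when cells with UMIs of other cell types, cells with 2 Trbv genes, each hashtag number in turn, or (an alternative added after seeing the data) Cd8-identity cells with Cd4 and no CD8 transcript were left out. They were lower, as fewer cells can pass, with at least 4 rule genes (0.400% in all cells, 0.542% in the Cd8 identity, 0.241% in the Cd4 identity), after thinning (0.415%, 0.608% and 0.189%) and with at least 2 UMIs of each of 3 rule genes (0.457%, 0.651% and 0.241%).

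Counts of genes at least 2-fold higher and lower moved by over 1.5 times under the settings below, some of which change how many genes are tested (5760 with at least 10 expected UMIs, 1523 with at least 50) and some of which do not (1.5-fold, mean of per-cell CPM, weighting). For all members they were 168 and 398 with at least 10 expected UMIs, 20 and 55 with at least 50, 327 and 543 at 1.5-fold, 30 and 68 with at least 4 rule genes, 39 and 111 without cycling cells, and 54 higher without Cd8-identity cells with Cd4 only. In the Cd8 identity the same settings gave 170 and 364, 20 and 40, 258 and 427, 24 and 59, 44 and 86, and, for the last, 45 and 98. In the Cd4 identity they gave 87 and 256, 6 and 26, 130 and 250, 8 and 31, and 6 and 24 for the first 5. In that identity, 63 genes were higher by the mean of per-cell CPM, 10 higher without cells with 2 Trbv genes, and 8 higher and 44 lower against weighted cells; the cause was not tested. Leaving out each hashtag number gave 48 to 85 higher and 125 to 185 lower genes for all members, 42 to 61 and 95 to 150 in the Cd8 identity, and 19 to 26 and 55 to 94 in the Cd4 identity. Fewer genes were then tested: 2534 to 3135, 1250 to 1888 and 612 to 1632. The genes were not the same: without number 1, 612 Cd4-identity genes were tested, and 2 of the 23 higher and 24 of the 76 lower were among the 30 and 97 reported. TMM scaling moved no count by over 1.5 times.

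Over 118 genes and 14 settings, 1228 of 1652 log2 ratios stayed within the counting interval of the reported value and 424 did not. The sign differed in 53, none of them past 2-fold in the reported comparison. Of 336 list medians, 325 moved by less than 1.5-fold, and the 11 others belong to the proliferation, macrophage and dendritic cell lists. The sign differed in 22 of the 336. No paired analysis was possible because all values come from 1 library. The 55 members limit precision: a gene with under 10 UMIs in them has a wide interval, and intervals do not cover differences between animals.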
